A study of Mus musculus with 16 samples.

Results

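The MCM helicase family comprises 9 genes in mouse, Mcm2 to Mcm10, which were measured here in non-tumour colon of ApcMin/+ mice. The members were the probes whose gene name in the array design equals one of these symbols: 12 of 55681 probes matched, covering 9 of the 24572 genes that passed a filter on dim probes. All 9 members passed that filter, and each of the 12 probes was well above background on all 16 arrays with no saturated spot. The family and its grouping were chosen with group differences of these mice in view, so the group differences of the members are given below as values without a test.

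ApcMin/+ mice carry 1 mutant copy of Apc, the gene whose loss starts most intestinal adenomas, and all 16 mice in the series had this genotype. The mice fell into 3 groups. The 5-ASA group (6 mice) drank water with dextran sulphate sodium (DSS), a polymer that injures the colonic lining, at 1.5% weight by volume for 3 days and was given 5-aminosalicylic acid (5-ASA), a drug prescribed against inflammation of the colon. The Control group (6 mice) drank the same DSS and was given saline. The Sham group (4 mice) drank water alone. The sample records give 28 days of administration into the colon and rectum for the Control mice as well, and none for Sham. DSS and this administration therefore cannot be told apart between Control and Sham. Macroscopically tumour-free colon was taken on day 28. The labels disagree on the route of the drug: some give administration into the colon and rectum for 28 days, others drinking water with 5-ASA for 25 days after DSS. The age and sex of the mice are not given in the sources used here. RNA of 1 mouse was labelled with Cy3 and hybridised to 1 single-colour Agilent array, so a value stands for whole colon tissue, in which fewer cells of a type and less RNA per cell cannot be told apart.

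Signals are given as log2 of the processed signal minus the 75th percentile of the same array, so that 0 is the 75th percentile and 1 unit is a doubling. Before scaling, that percentile lay between 9.84 and 10.15 on the log2 scale across the 16 arrays, and Pearson's r between arrays over all genes was 0.957 to 0.993. The arrays filled 2 slides with every group on both. All 4 Sham arrays and 4 Control arrays lay in row 1 of a slide, and all 6 5-ASA arrays and the other 2 Control arrays in row 2. The share of probes well above background was 59.8% to 65.2% on row 1 and 53.0% to 57.7% on row 2. Row and treatment therefore cannot be told apart between 5-ASA and Sham, and within-row values are given where a row held both groups. All 13 colon epithelium markers, such as Cdx2 and Krt20, were well above background on every array.

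Mcm2 to Mcm7 encode the 6 subunits of a ring that is loaded around DNA at replication origins in G1. Together with Cdc45 and the GINS complex this ring becomes the CMG helicase, which unwinds DNA ahead of the fork in S phase. Mcm10 is not a ring subunit: it binds the loaded ring and is needed to start unwinding. Mcm8 and Mcm9 form a separate helicase that acts in homologous recombination and in repair of crosslinked DNA. In the colon, the ring subunits are best known as markers of cells licensed to divide in the lower crypt, and they are lost as colonocytes differentiate.

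The 6 ring subunits were higher in Control than in Sham colon, by a median of 0.63 on the log2 scale, where the median over all 24572 genes was 0.0001. They did not separate 5-ASA from Control colon, with a median difference of -0.05. In 5-ASA colon they were higher than in Sham colon by a median of 0.61, but with far more spread among mice.

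**Figure D1:**
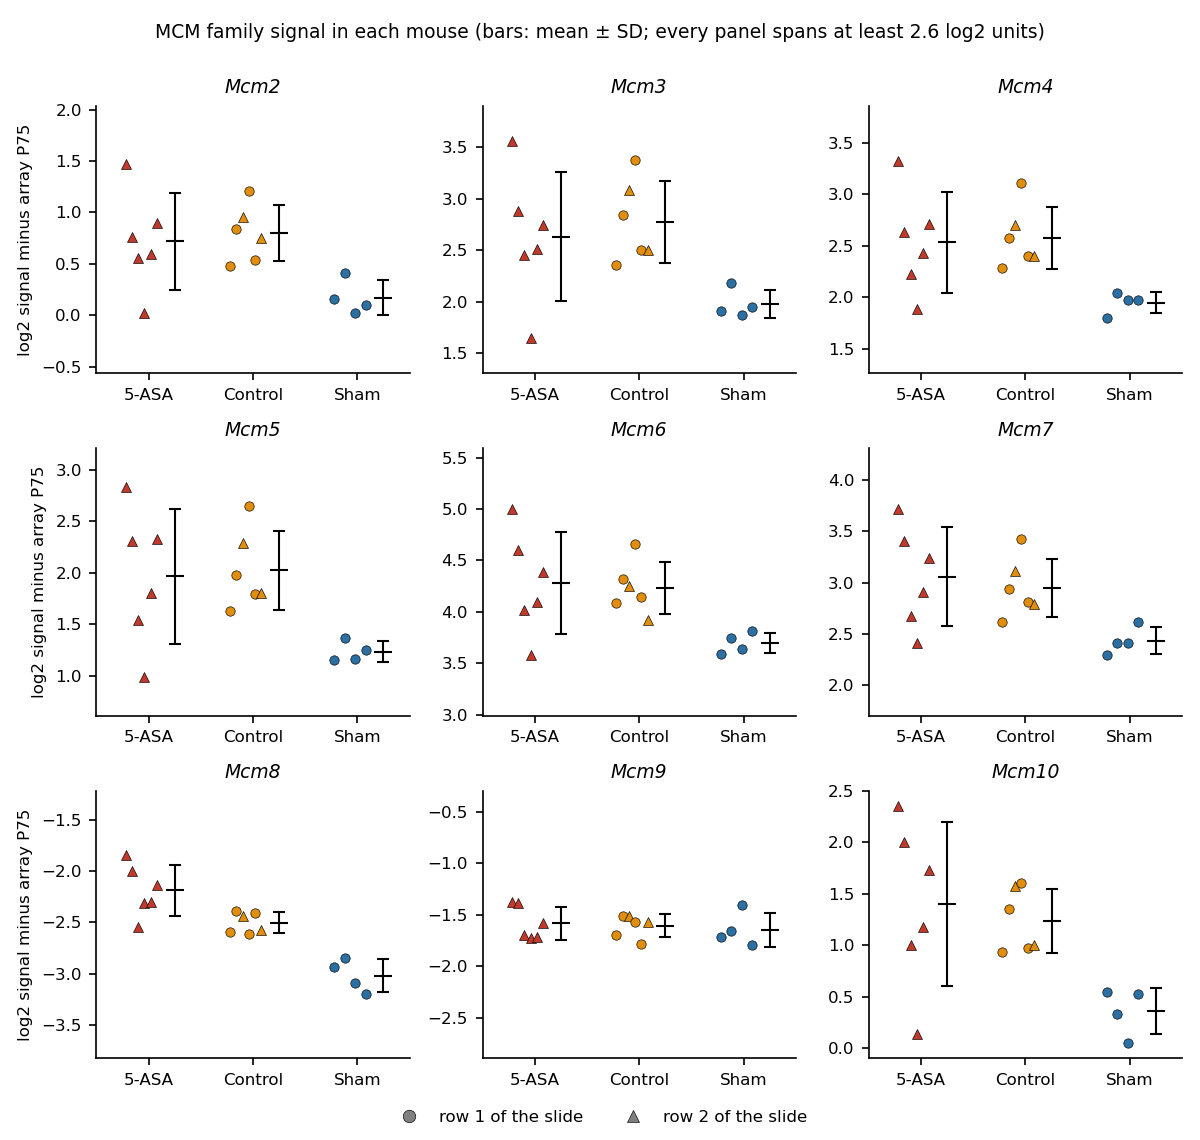
Log2 signal minus the array's 75th percentile (vertical axis) for each of the 9 members in each 5-ASA, Control and Sham mouse. Each point is 1 mouse, circles and triangles mark rows 1 and 2 of the slide, and bars give mean ± SD for 6, 6 and 4 mice. The Sham points of the ring subunits lie close together at the low end, while 5-ASA points spread across and beyond the Control range.

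Mcm2, the ring subunit that also carries parental histones, had a lowest, median and highest signal of 0.02, 0.68 and 1.47 in 5-ASA mice, and of 0.48, 0.80 and 1.21 in Control mice. The 4 Sham mice had 0.16, 0.41, 0.02 and 0.10. Every Control mouse lay above every Sham mouse, and 5 of 6 5-ASA mice did.

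Mcm4, Mcm6 and Mcm7 form the subcomplex that unwinds DNA on its own in vitro. Mcm4 ranged over 1.88, 2.53 and 3.32 (lowest, median, highest) in 5-ASA mice and over 2.28, 2.49 and 3.11 in Control mice, against 1.80, 2.04, 1.97 and 1.97 in the Sham mice. Mcm6 ranged over 3.58, 4.24 and 5.00 in 5-ASA mice and over 3.92, 4.2 and 4.66 in Control mice, against 3.59, 3.75, 3.64 and 3.81 in the Sham mice. Mcm7 ranged over 2.41, 3.07 and 3.71 in 5-ASA mice and over 2.62, 2.88 and 3.42 in Control mice, against 2.30, 2.41, 2.41 and 2.62 in the Sham mice. In these 3 genes all 6 Control mice exceeded all 4 Sham mice, but the lowest Control value of Mcm7 exceeded the highest Sham value by less than the rounding shown.

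Mcm3 and Mcm5 are adjacent subunits of the ring, and Mcm5 borders the gate with Mcm2 through which DNA enters. Mcm5 ranged over 0.99, 2.06 and 2.83 in 5-ASA mice and over 1.63, 1.89 and 2.65 in Control mice, against 1.15, 1.37, 1.16 and 1.25 in the Sham mice. Mcm3, on the probe designed to its RefSeq transcript, ranged over 1.65, 2.63 and 3.56 in 5-ASA mice and over 2.36, 2.67 and 3.38 in Control mice, against 1.91, 2.18, 1.87 and 1.95 in the Sham mice. Control and Sham did not overlap for either gene, and the lowest 5-ASA value lay below all Sham values in both.

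Mcm3 has another probe on the array, designed to a cDNA clone. The probes are 60 bases long, share 43 bases of the same stretch of chromosome 1 and differ by A31G, counted from 1 at the 5′ end of the RefSeq-based probe, whose base is given first. The bases around that position are shown because the probes serve as a near-duplicate measurement of 1 transcript, with the differing base in capitals.
Mcm3 RefSeq-based probe: aagctttctttgcAattagactagtatgta
Mcm3 cDNA-based probe: aagctttctttgcGattagactagtatgta
The difference between Control and Sham was 0.80 ± 0.28 (SE, limma) on the RefSeq-based probe and 0.80 ± 0.29 on the cDNA-based probe. After centring each group on its mean, Pearson's r between these probes over 16 mice was 1.00. The probes overlap, so this agreement says nothing of the rest of the transcript.

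By their position in the mm9 coordinates of the scanner files, the probes used for the ring subunits lie on chromosome 6 at 88833619 to 88833678 for Mcm2 and on chromosome 1 at 20793136 to 20793195 for Mcm3. Those of Mcm4 and Mcm5 lie on chromosome 16 at 15624372 to 15624431 and on chromosome 8 at 77651350 to 77651410. Those of Mcm6 and Mcm7 lie on chromosome 1 at 130228178 to 130228237 and on chromosome 5 at 138605925 to 138605984. The exon they lie in was not looked up, since no mm9 annotation was used here.

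Between Control and Sham, the fitted differences of the ring subunits were 0.51 ± 0.22 for Mcm7, 0.53 ± 0.21 for Mcm6, 0.63 ± 0.22 for Mcm2, 0.63 ± 0.22 for Mcm4, 0.79 ± 0.29 for Mcm5 and 0.80 ± 0.28 for Mcm3 (SE, limma). These correspond to between 1.43-fold and 1.74-fold higher signal in Control. The neighbours in this order differ by less than their standard errors. Between 1.75% (Mcm3) and 4.22% (Mcm7) of all genes had a more positive difference, and between 3.08% and 8.23% a larger one in either direction.

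Control and Sham did not overlap for 8 of the 9 members, all higher in Control, where 2.67% of 24502 genes with a value on every array showed the same. The exception was Mcm9. Leaving out any single Control or Sham mouse did not raise the count of 8, and it cannot lower it. The share of all genes then lay between 2.9% and 5.07%. Since the family was chosen on this contrast, the count describes the members and is not read as evidence about them. In row 1 of the slides, which held 4 Control and all 4 Sham mice, the median difference of the ring subunits was 0.62. Within slide 1 it was 0.57 and within slide 2 it was 0.72.

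**Figure D2:**
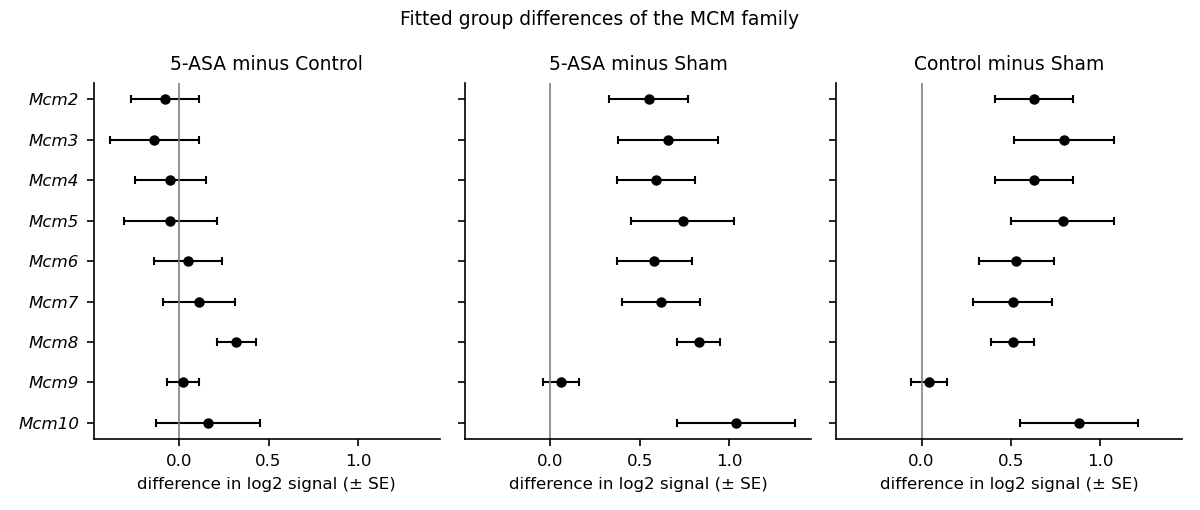
Fitted difference in log2 signal (horizontal axis) with its standard error for the 9 members in the 3 comparisons. The ring subunits sit near 0 for 5-ASA minus Control and between 0.51 and 0.80 for Control minus Sham, and Mcm9 sits near 0 in all 3.

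The comparison of 5-ASA with Control asks whether the drug altered the colon after the same DSS injury. The 6 ring subunits had differences between -0.14 ± 0.25 for Mcm3 and 0.11 ± 0.20 for Mcm7 (SE, limma). All of them overlapped between the groups, and none of the 9 members was separated, where 0.0245% of genes lay wholly higher in 5-ASA. In this comparison limma called 0 of 24572 genes (0.0%) at an adjusted p under 0.05, and 1019 had an unadjusted p under 0.05. The sign of the ring difference was not stable: the median was 0.23 within slide 1, -0.31 within slide 2 and -0.05 within row 2. Without 5-ASA 1 it was -0.22, without 5-ASA 4 it was 0.11 and without Control 4 it was 0.07.

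In the ring subunits the 5-ASA mice differed more among themselves than the other mice did. The median SD over all genes was 0.24 in both 5-ASA and Control. The deviation of a gene from its mean over 16 arrays, averaged over the 6 ring subunits, was 0.15 ± 0.53 in 5-ASA, 0.17 ± 0.30 in Control and -0.48 ± 0.10 in Sham (mean ± SD, n = 6, 6 and 4). The 5-ASA mice ranged over -0.63 to 0.93, the Control mice over -0.14 to 0.68 and the Sham mice over -0.57 to -0.36. 5-ASA 1 was the highest and 5-ASA 4 the lowest of their group in 6 of 6 ring subunits. Control 4 was the highest Control mouse in 6 of 6 and Control 1 the lowest in 5 of 6. In 5-ASA mice 9.55% (Mcm5) to 17.3% (Mcm2) of all genes had a larger SD than the ring subunit. In Control mice this share was 26.8% (Mcm3) to 48.8% (Mcm6), and in Sham mice 62.0% (Mcm2) to 85.0% (Mcm6).

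Between 5-ASA and Sham, the ring subunits differed by 0.55 ± 0.22 for Mcm2 to 0.74 ± 0.29 for Mcm5 (SE, limma). None of the 6 was separated between these groups, because 5-ASA 4 fell within or below the Sham range in each. Without 5-ASA 4, 8 of the 9 members were wholly higher in 5-ASA than in Sham, where 4.18% of all genes were. That mouse set the overlap of the ring subunits, so this count follows from its values and is not read as evidence. Leaving out any other single 5-ASA or Sham mouse gave 1 of 9, where 1.19% to 2.53% of all genes were wholly higher. With all mice the count was 1 of 9, against 1.11% of all genes. The median ring difference was 0.89 within slide 1 and 0.38 within slide 2.

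The 6 ring subunits varied together from mouse to mouse. After each group was centred on its mean, Pearson's r between 2 ring subunits over 16 mice was 0.888 to 0.975 over the 15 pairs, with a median of 0.955. These values come from the same 16 RNA preparations and arrays and are given as a description without p. Each ring subunit followed the mean of the other 5 with r between 0.95 and 0.99. Without the 2 mice farthest from the median, 5-ASA 1 and 5-ASA 4, r was 0.866 for Mcm2, 0.882 for Mcm6 and 0.979 for Mcm5.

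Of all other named genes, the 5 with the highest r to the ring mean were Uhrf1 (0.998), Snrpd1 (0.985), Gins1 (0.977), Nup93 (0.974) and Orc6 (0.974), over the same 16 group-centred mice. Uhrf1 binds hemimethylated DNA behind the fork and brings in the maintenance methyltransferase. Gins1 is a subunit of the GINS complex and Orc6 of the origin recognition complex, so both belong to the machinery of the ring itself. Snrpd1 is a core protein of spliceosomal snRNPs, and Nup93 is a scaffold protein of the nuclear pore. Spearman's rho for these 5 genes was 0.947 to 0.997, and r without 5-ASA 1 and 5-ASA 4 was 0.93 to 0.997.

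Mcm10, the factor that helps the loaded ring start unwinding, spread most among the 5-ASA mice. Its lowest, median and highest signals were 0.14, 1.45 and 2.35 in 5-ASA mice and 0.93, 1.18 and 1.60 in Control mice, against 0.54, 0.33, 0.05 and 0.52 in the Sham mice. All Control mice and 5 of 6 5-ASA mice lay above every Sham mouse. The difference was 0.88 ± 0.33 between Control and Sham (1.84-fold), 0.16 ± 0.29 between 5-ASA and Control and 1.04 ± 0.33 between 5-ASA and Sham (2.05-fold; SE, limma). In 5-ASA mice 6.31% of all genes had a larger SD than the 0.79 of Mcm10. Its group-centred r with the ring mean was 0.94, and 0.84 without 5-ASA 1 and 5-ASA 4. The probe lies on chromosome 2 at 4911785 to 4911844 (mm9).

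Mcm8, a subunit of the recombination helicase, had its highest group mean in 5-ASA mice, as did Mcm6, Mcm7, Mcm9 and Mcm10. On its brighter probe, on chromosome 2 at 132669680 to 132669739 (mm9), the 5-ASA mice had a lowest, median and highest signal of -2.54, -2.22 and -1.84. The Control mice had -2.61, -2.51 and -2.39, and the Sham mice had -2.93, -2.85, -3.09 and -3.20. Sham lay below both other groups without overlap, and 5 of 6 5-ASA mice lay above every Control mouse. The exception was 5-ASA 3, at -2.54.

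The difference of Mcm8 was 0.83 ± 0.12 between 5-ASA and Sham (1.78-fold), 0.51 ± 0.12 between Control and Sham (1.43-fold) and 0.32 ± 0.11 between 5-ASA and Control (1.24-fold; SE, limma). Between 5-ASA and Sham, 480 genes (1.95% of those tested) had a more positive difference than Mcm8. In that comparison limma called 14 of 24572 genes (0.057%) at an adjusted p under 0.05, and 1 of them (0.00407%) was higher in 5-ASA. That gene was Mcm8, which is how it came to be singled out, so its call is not read as a result. Of 30 alternative settings, 21 kept this call and 9 did not, among them leaving out Sham 3 or Sham 4.

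The row of the slide moves with the Mcm8 contrast between 5-ASA and Sham, since these groups share no row. Within row 1, Control exceeded Sham by 0.52 (4 mice each), and within row 2, 5-ASA exceeded Control by 0.32 (6 and 2 mice), against 0.51 and 0.32 over all mice. Between 5-ASA and Sham, Mcm8 differed by 0.76 within slide 1 and by 0.90 within slide 2. With background modelled by normexp the Mcm8 difference was 0.55 for 5-ASA minus Sham and 0.31 for Control minus Sham.

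A dimmer Mcm8 probe lies on chromosome 2 at 132669551 to 132669610 (mm9), at lower coordinates than the brighter probe and without overlap. It ranged over -3.69, -2.95 and -2.21 in 5-ASA mice and over -3.72, -3.26 and -3.05 in Control mice, against -3.67, -3.58, -4.29 and -3.92 in the Sham mice. On this probe the groups overlapped, and its difference between 5-ASA and Sham was 0.95 ± 0.26 (SE, limma). 5-ASA 3, 5-ASA 4 and 5-ASA 5 (-3.32, -3.69 and -3.19) lay below the highest Control value of -3.05. The group-centred r between the Mcm8 probes over 16 mice was 0.76. They place 5-ASA 4 differently: it is the lowest 5-ASA mouse on the dimmer probe, and it lies above 5-ASA 3 and beside 5-ASA 5, at -2.31, on the brighter one.

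How closely Mcm8 tracked the ring depended on the probe. Its group-centred r with the ring mean was 0.57 on the brighter probe and 0.80 on the dimmer one, and 0.351 and 0.581 without 5-ASA 1 and 5-ASA 4. 5-ASA 4, the lowest 5-ASA mouse for the ring at -0.63, was 0.21 above the overall mean on the brighter Mcm8 probe but at -0.38 on the dimmer one, where the Sham mice ranged over -0.99 to -0.28. Control 4, at 0.68 for the ring, was at -0.10 on the brighter and 0.02 on the dimmer probe. The named genes most like the brighter Mcm8 probe were Tedc2 (r = 0.862), St3gal4 (0.837), Rbm4 (0.828), G2e3 (0.815) and Gins4 (0.809), with 2 probes of no gene name passed over. Tedc2 belongs to a complex that stabilises centrioles, St3gal4 adds sialic acid to glycans, Rbm4 binds RNA in splicing and G2e3 is a ubiquitin ligase. Gins4 is a GINS subunit. Without 5-ASA 1 and 5-ASA 3, the mice farthest from the median of Mcm8, these r values were 0.664 to 0.80.

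**Figure D3:**
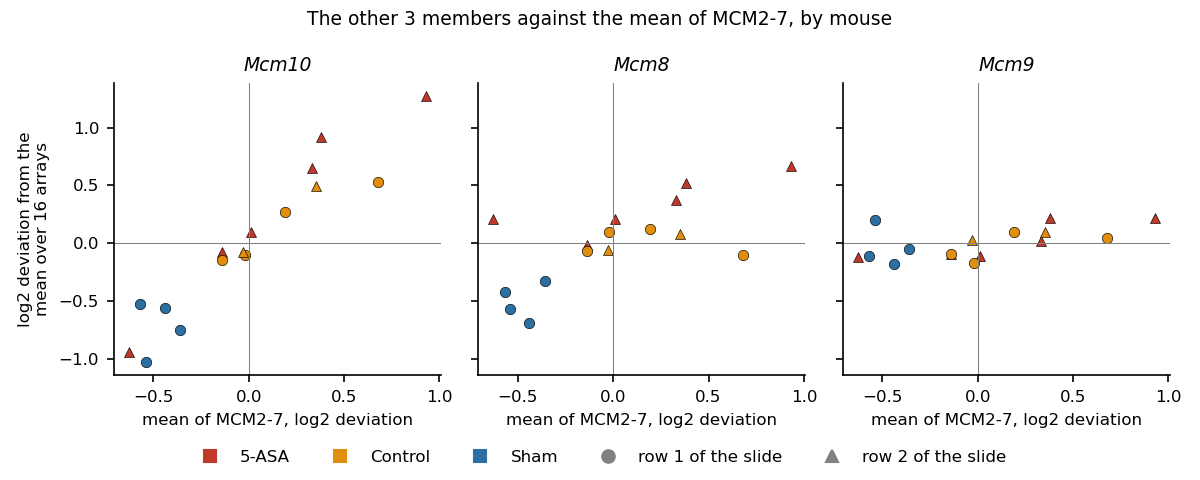
Deviation in log2 signal from the mean over 16 arrays for Mcm10, Mcm8 and Mcm9 (vertical axes) against the mean deviation of Mcm2 to Mcm7 (horizontal axes). Each point is 1 mouse, with colours for group and shapes for row of the slide. Mcm10 rises with the ring over all mice, the brighter Mcm8 probe plotted here places 5-ASA 4 (-0.63, 0.21) apart from the Sham mice, and Mcm9 stays between -0.18 and 0.22.

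Mcm9, the partner of Mcm8, differed between groups by less than the spread among mice. It ranged over -1.73, -1.64 and -1.38 in 5-ASA mice and over -1.78, -1.57 and -1.51 in Control mice, against -1.72, -1.66, -1.41 and -1.79 in the Sham mice. All groups overlapped. The differences were 0.06 ± 0.10 between 5-ASA and Sham, 0.02 ± 0.09 between 5-ASA and Control and 0.04 ± 0.10 between Control and Sham (SE, limma).

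The Mcm9 probe used, designed to an Ensembl transcript, lies on chromosome 10 at 53256589 to 53256648 (mm9), and the other, designed to the RefSeq transcript, at 53257130 to 53257189. On the RefSeq-based probe the difference between Control and Sham was 0.07 ± 0.14 and that between 5-ASA and Sham 0.04 ± 0.14 (SE, limma). The group-centred r between the Mcm9 probes was -0.01, so they did not rank the mice alike. Whether they detect different transcripts was not tested.

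The labels give a diarrhea score at day 28, which played no part in choosing the family, and which splits the Control mice into 3 with a score of at least 1 and 3 with 0.5. Of the 9 members, 8 had higher means in the mice with the higher score, by 0.10 ± 0.28 for Mcm6 to 0.45 ± 0.36 for Mcm5 among the ring subunits (SE, limma). Mcm5 averaged 2.25 ± 0.43 in the mice with the higher score and 1.80 ± 0.17 in those with 0.5 (SD, n = 3 each). Mcm8 averaged -2.54 ± 0.09 and -2.46 ± 0.11 in the same order.

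None of these differences passed the test: limma's adjusted p for the 9 members was 0.546 to 0.893, and none had an unadjusted p under 0.05. In the same fit 1 of 24572 genes (0.00407%) was called, and 3863 had an unadjusted p under 0.05. A two-sided exact permutation test gave Mcm5 p = 0.2, and 3 mice against 3 cannot give less than 0.1. No member was separated between the scores, where 8.57% of all genes lay wholly higher in the mice with the higher score. The median ring difference of 0.34 was 0.19 without Control 4, and the difference of Mcm6 was -0.09 without that mouse. With row as a covariate the ring median was 0.66: all 3 mice with a score of 0.5 lay in row 1, and 2 of the 3 with the higher score in row 2.

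Markers of some other cell types split by the score, as mean deviations per mouse. In Control 3, Control 4 and Control 6, which had the higher score, the B cell list was at 0.54, 2.73 and 0.19, against -1.45, -0.10 and -0.71 in Control 1, Control 2 and Control 5. The neutrophil list was at 0.35, 1.20 and 0.71, against -0.69, -0.11 and -0.54 in the same mice. The fibroblast list was at -0.66, -0.59 and -0.15, against 0.23, -0.09 and 0.16. None of these lists overlapped between the scores, but only 5 of the 10 tested neutrophil genes were well above background on every array. Of all genes, 8.57% lay wholly higher with the higher score, and the share wholly lower was not counted. The separation of the lists is therefore a description. Germinal centre B cell genes also lay wholly higher with the higher score, and erythroid genes wholly lower. The germinal centre margin was narrow, with -0.24 in Control 6 against -0.28 in Control 2. The T cell, smooth muscle, colon epithelium, crypt base and differentiated colonocyte lists overlapped. The enteric neuron and glia list met at 0.05 in Control 3 and Control 5. The part of these cell types in the member differences was not tested.

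The other genes of origin licensing and fork progression were read from lists whose genes were picked by function, with earlier results of these mice known. Genes of a list were measured in the same mice and are not independent. Their counts therefore describe the lists and are not read as evidence. Over all 24572 genes, an unadjusted p under 0.05 was reached by 2719 (11.1%) between 5-ASA and Sham, 1019 (4.15%) between 5-ASA and Control and 2185 (8.89%) between Control and Sham, and the counts of each list are set beside these shares. Among 10 origin licensing genes, 8 were higher in Control than in Sham, with a median of 0.39, and 5 had an unadjusted p under 0.05 (8.89% of all genes), but limma called none. Cdc6, the ATPase that loads the ring with Cdt1, had 6 values of -3.28 to -1.15 in 5-ASA mice and of -2.45 to -1.49 in Control mice, against -2.88, -2.72, -3.0 and -3.05 in the Sham mice. Its difference was 0.90 ± 0.31 between Control and Sham, with an adjusted p of 0.559 by limma. Orc1, the largest subunit of the origin recognition complex, differed by 0.56 ± 0.16 between 5-ASA and Sham (adjusted p = 0.33 by limma).

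Among 12 genes of helicase activation, which include the Cdc45 and GINS partners of the ring, 11 were higher in Control than in Sham (median 0.57) and 11 in 5-ASA than in Sham (median 0.61). Limma called none, while 7 and 8 had an unadjusted p under 0.05 in these comparisons (8.89% and 11.1% of all genes). Gins2, a GINS subunit, differed by 0.87 ± 0.24 between 5-ASA and Sham and by 0.68 ± 0.24 between Control and Sham. Topbp1, a scaffold for firing of origins, differed by 0.63 ± 0.20 and 0.59 ± 0.20 in the same comparisons. Adjusted p was 0.33 for 5-ASA minus Sham and 0.559 for Control minus Sham in both genes (limma).

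All 25 genes of the replisome list, the polymerases, clamp loader and fork protection factors, were higher in Control than in Sham, by a median of 0.41. All 25 were also higher in 5-ASA than in Sham (median 0.51). Limma called 0 of the 25 in either comparison, with 10 and 17 at an unadjusted p under 0.05 (8.89% and 11.1% of all genes). Pold2, a subunit of the lagging-strand polymerase, had 0.97, 0.63, 0.17, -0.02, 0.38 and 0.83 in the 5-ASA mice and 0.13, 0.21, 0.44, 0.53, 0.25 and 0.32 in the Control mice, against -0.08, -0.08, -0.15 and -0.06 in the Sham mice. Every 5-ASA and Control mouse lay above every Sham mouse for Pold2, which was named for its small p. Of the 25 genes, 2 lay wholly higher in 5-ASA than in Sham (1.11% of all genes). In Control 10 did (2.67% of all genes). Timeless, a fork protection factor, differed by 0.67 ± 0.20 between 5-ASA and Sham (adjusted p = 0.33 by limma).

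Of 18 tested genes of homologous recombination, the setting of Mcm8 and Mcm9, 16 were higher in 5-ASA than in Sham, with a median of 0.36, and 16 in Control than in Sham, with a median of 0.31. Limma called 0 of the 18 in these comparisons, with 10 and 8 at an unadjusted p under 0.05 (11.1% and 8.89% of all genes). Hrob, which recruits the Mcm8 and Mcm9 helicase to DNA, had 0.56, 0.54, -0.78, -1.24, -0.44 and 0.13 in the 5-ASA mice and -0.93, -0.50, -0.03, 0.16, -0.62 and -0.51 in the Control mice. The Sham mice had -1.41, -1.19, -1.40 and -1.04. All Control mice and all 5-ASA mice but 5-ASA 4 lay above every Sham mouse. Of the 18 genes, 5 lay wholly higher in Control than in Sham (2.67% of all genes). The difference of Hrob was 1.06 ± 0.32 between 5-ASA and Sham (adjusted p = 0.33 by limma). Rad54b, a translocase of recombination, differed by 1.08 ± 0.32 in that comparison (adjusted p = 0.33 by limma).

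E2F factors, held back by RB proteins until late G1, drive transcription of replication genes. Of 15 tested genes of the E2F and RB list, 13 were higher in 5-ASA than in Sham (median 0.37) and 11 in Control than in Sham (median 0.26). Limma called 0 of the 15, with 8 and 7 higher at an unadjusted p under 0.05 (6.12% and 5.47% of all genes). Tfdp1, the DNA-binding partner of E2F proteins, differed by 0.53 ± 0.15 between 5-ASA and Sham (adjusted p = 0.33 by limma). Cdk2, the kinase of S phase entry, differed by 0.48 ± 0.15 in that comparison with the same adjusted p.

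Mitosis and proliferation markers, genes used to mark dividing cells, were set beside the ring. All 14 were higher in Control than in Sham (median 0.82), in 5-ASA than in Sham (median 1.13) and in 5-ASA than in Control (median 0.32), where the ring median was -0.05. Limma called 0 of the 14 in each comparison, with 8, 13 and 0 at an unadjusted p under 0.05 (8.89%, 11.1% and 4.15% of all genes). Aurka, a spindle kinase, differed by 1.30 ± 0.36 between 5-ASA and Sham (adjusted p = 0.33 by limma) and by 0.37 ± 0.32 between 5-ASA and Control (adjusted p = 0.999 by limma). Cdc20, an activator of the anaphase-promoting complex, differed by 0.98 ± 0.29 and 0.35 ± 0.26 in the same comparisons, with the same adjusted p. The difference between the lists was not tested.

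**Figure D4:**
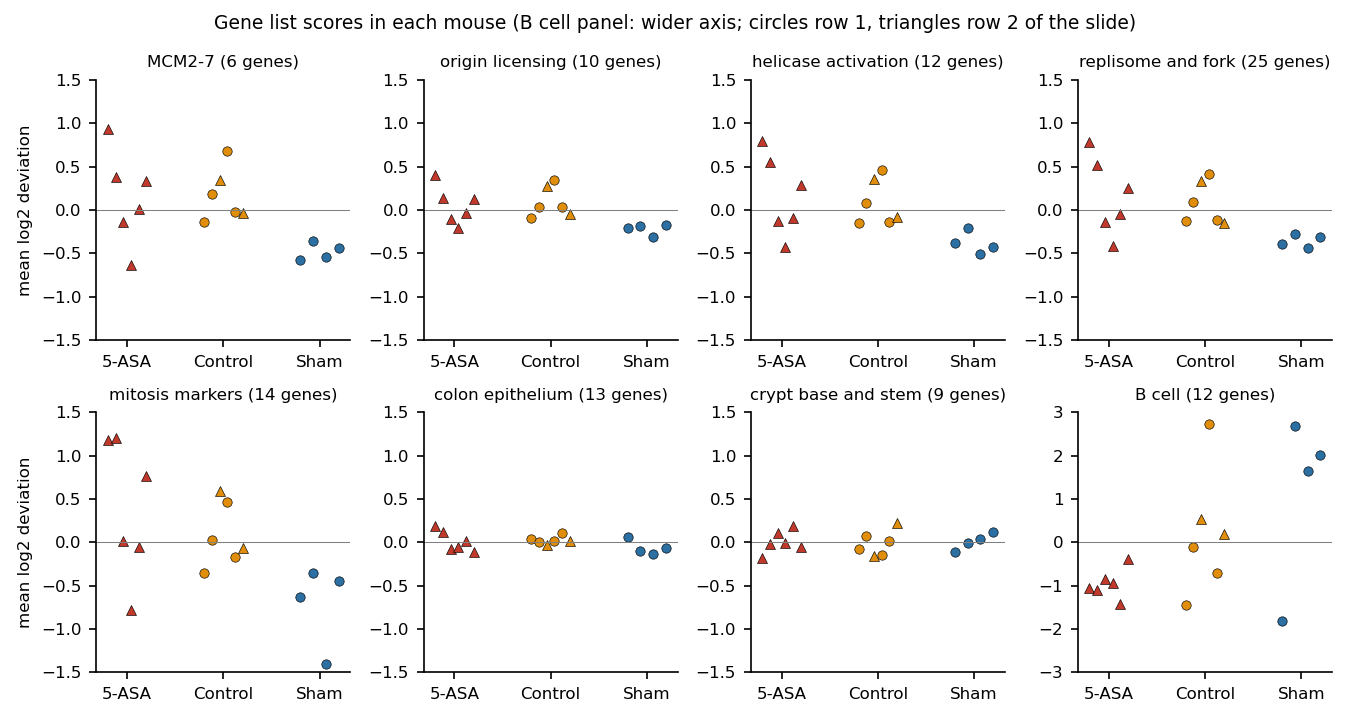
Mean deviation in log2 signal from the mean over 16 arrays (vertical axis) for 8 gene lists in each 5-ASA, Control and Sham mouse, each point 1 mouse. The replication lists order the mice much as Mcm2 to Mcm7 do, colon epithelium and crypt base lists stay within -0.18 to 0.22, and the B cell list spans -1.82 to 2.73 on a wider axis.

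The lists of other cell types were set beside the ring in the same way, as mean deviations per mouse. The 13 colon epithelium markers ranged over -0.11 to 0.19 in 5-ASA, -0.03 to 0.11 in Control and -0.14 to 0.06 in Sham. The 9 tested crypt base and stem cell genes ranged over -0.18 to 0.19, -0.16 to 0.22 and -0.11 to 0.12 in the same groups. The 9 differentiated colonocyte genes ranged over -0.27 to 0.15, -0.10 to 0.14 and -0.23 to 0.29. The 12 B cell markers ranged over -1.43 to -0.39 in 5-ASA, -1.45 to 2.73 in Control and -1.82 to 2.69 in Sham, and 9 of the 12 were well above background on every array. Control 4, the highest Control mouse for the ring, was the highest of all mice for B cell markers (2.73), T cell markers (1.23), germinal centre B cell markers (1.26) and neutrophil markers (1.20). Sham 2, Sham 3 and Sham 4 also had B cell scores over 1.6, with ring scores of -0.36, -0.54 and -0.44. The 10 fibroblast genes ranged over -0.19 to 0.19 in 5-ASA, -0.66 to 0.23 in Control and 0.05 to 0.36 in Sham, and the lowest scores were those of Control 3 (-0.66) and Control 4 (-0.59), the Control mice highest for the ring. Smooth muscle genes ranged over -0.02 to 0.42, -1.24 to 0.78 and -0.41 to 0.88 in the same 3 groups, and enteric neuron and glia genes over -0.08 to 0.26, -1.14 to 0.61 and -0.54 to 0.73. Control 4 was the lowest of all mice for the neuron and glia list, at -1.14. The 5 tested erythroid genes ranged over -1.35 to 0.05, -0.07 to 2.96 and -0.56 to 0.56, highest in Control 1, the Control mouse lowest for the ring. Without Control 4 the median ring difference between Control and Sham was 0.53, and the part of these cell types in it was not tested.

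The promoters of the family were searched for the E2F-type motif TTTGGCGC or TTTCGCGC and for the CCAAT box, CCAAT, on both strands. RefSeq windows of 300 bases (build GRCm38.p6; 250 bases before the annotated start and 50 after) were matched by symbol for 8 members, with 2 windows for Mcm7 and none for Mcm4. The E2F-type motif was present in 5 of the 8, Mcm3, Mcm5, Mcm6, Mcm7 and Mcm8, where 0.929% of 27025 genes and 0.813% of 32851 windows of this length hold it. The CCAAT box was present in all 8, where 41.1% of genes hold it. Mcm2, Mcm9 and Mcm10 had no match to these E2F-type letters within their windows.

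The 250 bases before the start of Mcm5 (chr8:75109259-75109508, plus strand) and Mcm6 (chr1:128359706-128359955, minus strand) are shown because both hold the motif there, with the E2F-type letters of either strand in capitals. The matches at -153 and -149 in Mcm5 overlap on opposite strands, as do those at -110 and -106 in Mcm6, and Mcm6 has a further match at -47.
Mcm5 upstream: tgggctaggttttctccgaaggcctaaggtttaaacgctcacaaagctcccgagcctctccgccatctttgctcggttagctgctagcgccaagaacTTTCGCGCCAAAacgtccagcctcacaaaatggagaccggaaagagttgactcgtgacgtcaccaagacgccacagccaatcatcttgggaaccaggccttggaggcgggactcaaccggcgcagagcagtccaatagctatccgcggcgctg
Mcm6 upstream: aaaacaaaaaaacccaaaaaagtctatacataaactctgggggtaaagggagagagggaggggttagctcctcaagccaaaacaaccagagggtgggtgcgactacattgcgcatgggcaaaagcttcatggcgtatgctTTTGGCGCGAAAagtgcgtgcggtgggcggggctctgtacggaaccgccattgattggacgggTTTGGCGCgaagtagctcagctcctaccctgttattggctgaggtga

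In Mcm3, Mcm7 and Mcm8 the match lies just after the annotated start, at 39, 17 and 40, and 30 bases around it are shown for comparison with the upstream sites. In Mcm7 the last base of the match is also the first base of a CCAAT box. The windows come from chr1:20820263-20820562 (minus strand), chr5:138171834-138172133 (minus strand) and chr2:132815891-132816190 (plus strand).
Mcm3: cgggaaaacttgggaagtTTTGGCGCcaag
Mcm7: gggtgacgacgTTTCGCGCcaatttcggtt
Mcm8: gcagaagcgcgtcatagacGCGCCAAAaaa
The match in Mcm8 is on the opposite strand, read here along the gene. These matches are letters in a window and were not measured as bound in this study.

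**Figure D5:**
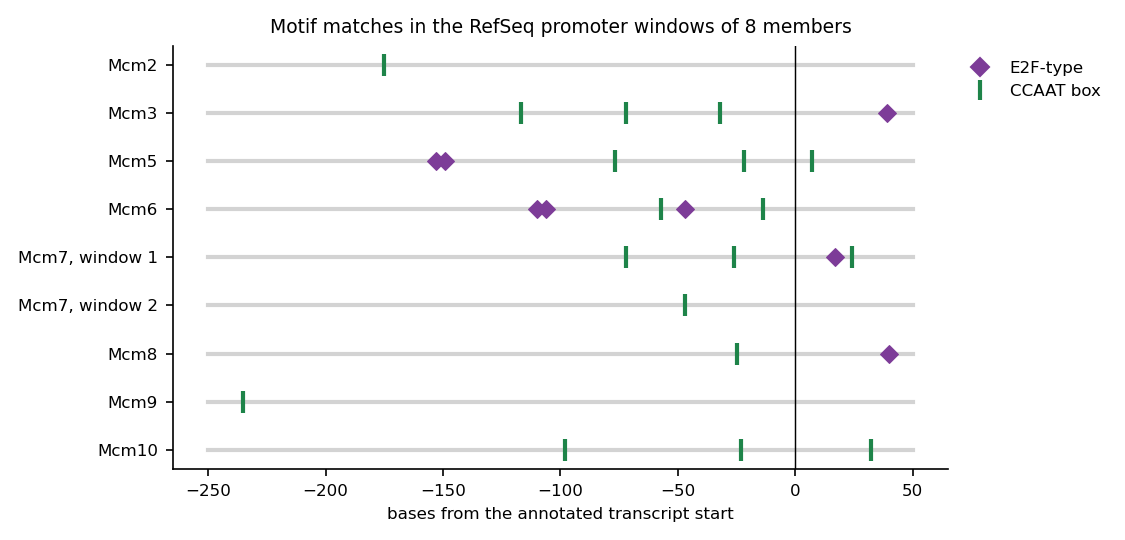
Positions of E2F-type matches (diamonds) and CCAAT boxes (bars) in bases from the annotated transcript start (horizontal axis) for 9 promoter windows of 8 members. The E2F-type matches of Mcm5 and Mcm6 lie before the start, those of Mcm3, Mcm7 and Mcm8 after it, and every window has at least 1 CCAAT box.

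Outside the family, 194 tested genes hold the E2F-type motif in a window. Of these, 64.4% were higher in Control than in Sham and 66.0% in 5-ASA than in Sham, where 12287 and 12288 of all 24572 genes were. Their median differences were 0.06 and 0.07, against 0.63 and 0.61 for the ring. Limma called none of the 194 in these comparisons, with 28 and 45 at an unadjusted p under 0.05 (8.89% and 11.1% of all genes). The share with a difference over 0.5 was 12.4% between 5-ASA and Sham, against 4.72% of all genes, and 7.73% between Control and Sham, against 4.46%. The comparisons with Sham share the 4 Sham mice, so the values of one are not independent of the other.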

How the data were processed

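RNA of non-tumour colon from 16 ApcMin/+ mice was measured on 1 single-colour Agilent array per mouse. The deposited spot intensities are processed signals of Feature Extraction 10.10.1.1, background-corrected by that software, per the file headers. The table of log2 values that the authors deposited matched these intensities after scaling each array to its 75th percentile and centring each probe on its median over the Sham arrays (r of 0.992 to 0.998 per array). It served as an alternative, and its direction and log2 scale were read from that match.

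Of 62976 spots per array, 3671 control spots and spots with an outlier flag were left out, and spots of a probe were averaged. The value analysed was log2 of the processed signal minus the array's 75th percentile. A probe was kept if well above background on at least 4 arrays (35119 of 55681), and the probe with the highest mean stood for its gene. Of the probes, 27656 were named through RefSeq accessions (GRCm38.p6) and 28025 kept the name in the files; the members are the same under either naming.

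Group differences and their SE come from limma 3.58.1 in R 4.3.3 (lmFit and eBayes, all 16 mice, Benjamini-Hochberg over 24572 genes, adjusted p under 0.05). The Control mice were also split by the labelled diarrhea score in a fit of 4 groups. A planned permutation test of the mean over Mcm2 to Mcm7 was not used, since the members were chosen together. The limma step was tested on simulated data. The members and gene lists were chosen with earlier results of these data known. The text names all 9 members with each probe, the 2 genes of each pathway list with the smallest p when none was called, and the 5 genes most like the mean of Mcm2 to Mcm7 and Mcm8. Alternatives covered background, scaling, dim probes, probe choice, slide, row, outer spot rows, the deposited table, the replicate number, the groups fitted and leaving out each mouse. Fits of each probe on its own, values within rows and group overlap without each mouse were added after seeing the data. The number of arrays limits the precision. Per the labels, the mice are biological replicates.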

Additional observations from a re-analysis of the deposited data

How the results depend on the processing

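The median difference of the ring subunits between Control and Sham was positive under 31 of 31 alternatives (0.53 to 0.72), and between 5-ASA and Sham under 30 of 30 (0.38 to 0.89). Between 5-ASA and Control it was positive under 4 of 31 and lay between -0.31 and 0.23. Some alternatives, such as leaving out a mouse of the group not compared, cannot move a median. The counts of alternatives are therefore not counts of independent checks. Each of these medians moved by less than the SD of 0.38 among single mice. The SE of a ring subunit's difference, which is nearer in kind, was 0.19 to 0.29 over the 3 comparisons. The medians that involve 5-ASA moved by about as much as that SE. Mcm8 stayed above Sham in both treated groups and above Control in 5-ASA under all 31 alternatives, and Mcm9 differences lay between -0.08 and 0.20 across the 3 comparisons.

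Counts of called genes over the whole array moved more, and the cause was not tested. For Control minus Sham the count of 14 was 4 within slide 1, 1 within slide 2, 0 without the outer 12 spot rows at both ends and 7 with only these 2 groups fitted. For 5-ASA minus Control the count of 0 was 2953 with no filter on dim probes, 1 within slide 2 and 7 with row as a covariate. Of those 2953 genes, 2905 were higher in 5-ASA. For 5-ASA minus Sham the count of 14 was 2 within slide 1, 4 within slide 2, 7 with row as a covariate, 0 without the outer spot rows and 25 with only these groups fitted. Leaving out 1 mouse at a time gave 11 to 26, the highest without 5-ASA 4. Without the outer spot rows the Mcm8 difference stayed 0.83, and no member probe lies there. The call of Mcm8 was lost there, within either slide, with row as a covariate, with the mean over probes, with only these groups fitted, with the replicate block, and without Sham 3 or Sham 4.

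For the diarrhea score the count of 1 was 0 with quantile or median scaling, within slide 2 and with only the 6 Control mice fitted. It was 2 within slide 1, 291 with no filter on dim probes and 266 with row as a covariate, and leaving out 1 mouse at a time gave 0 to 436. The highest counts came without Control 3 (436) and Control 6 (158).

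Whether the replicate numbers pair the mice was not settled. Over 14 same-numbered pairs the correlation of deviations was -0.212 to 0.607, and over 0.1 in 8. The number largely follows the slide, with Control and 5-ASA mice 1 to 3 on slide 1 and 4 to 6 on slide 2. Sham 3 lay on slide 2, and its pairs with Control 3 and 5-ASA 3 had -0.212 and -0.194. Pairs with different numbers were not compared, and the main fit used no pairing. With the number as a replicate block the counts were 10, 0, 11 and 0 for Control minus Sham, 5-ASA minus Control, 5-ASA minus Sham and the diarrhea score, and the ring medians were 0.66, -0.05, 0.65 and 0.63.

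All member probes were well above background on all 16 arrays, but those of Mcm8 and Mcm9 are dim, and normexp lowered the Mcm8 differences. The number of arrays, 16 on 2 slides, limits the precision of every value.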
